A study of Mus musculus with 6 samples.

Results

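Txnip, the other alpha-arrestins Arrdc1, Arrdc2, Arrdc3 and Arrdc4, the glucose sensor factors Mlxip, Mlx and Mlxipl, and the thioredoxin genes Txn1 and Txnrd1 were followed through KCl depolarization of mouse cortical neurons. The 10 genes were taken by symbol from 43432 listed genes. Txnip was chosen by its known fall in normalized counts at 2 h and 6 h in these same libraries, so its values are given as a description with no test. The others joined it by family, by partnership in transcription or by the thioredoxin system. All samples were wild-type C57BL/6 cortical neurons from E16.5 embryos of both sexes pooled, grown for 7 days in culture. From day 6 every culture, the 0 h group included, was silenced overnight with 1 µM tetrodotoxin, a sodium channel blocker, and 100 µM DL-AP5, an NMDA receptor antagonist. Neurons were then harvested without KCl (0 h) or after 2 h or 6 h in 55 mM KCl, a depolarizing concentration that lets calcium in through voltage-gated channels, with 2 biological replicates per group. The 0 h group therefore serves as the control throughout, and it is a silenced state, not spontaneous activity.

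Alpha-arrestins are membrane adaptors that recruit ubiquitin ligases of the Nedd4 family to transporters and receptors, and Txnip takes glucose transporters off the cell surface. Txnip also binds reduced thioredoxin and blocks it. When glucose 6-phosphate is plentiful, MondoA (encoded by Mlxip) or ChREBP (encoded by Mlxipl) pairs with Mlx, enters the nucleus and binds carbohydrate response elements, of which those of the Txnip and Arrdc4 promoters are well known.

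The promoters of Txnip, Arrdc4 and Mlx are shown because they hold the DNA motifs on which factors of this network act and because their mRNAs changed in different ways. The windows are RefSeq sequences on GRCm38.p6, from 250 bases before to 50 bases after the annotated start, 5′ to 3′ on the strand of the gene. Txnip lies at chr3:96557707-96558006 (plus strand), Arrdc4 at chr7:68749189-68749488 (minus strand) and Mlx at chr11:101087040-101087339 (plus strand). Capitals mark the E-box CACGTG, the paired sites (2 copies of CACGNG spaced by 5 bases, the layout of a carbohydrate response element) and CCAAT, each on either strand.
Txnip: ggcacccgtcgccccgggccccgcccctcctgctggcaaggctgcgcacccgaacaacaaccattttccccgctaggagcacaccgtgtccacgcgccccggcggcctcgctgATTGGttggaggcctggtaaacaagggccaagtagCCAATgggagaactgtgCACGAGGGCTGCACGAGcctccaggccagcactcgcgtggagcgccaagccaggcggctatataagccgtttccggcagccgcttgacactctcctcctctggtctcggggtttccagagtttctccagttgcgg
Arrdc4: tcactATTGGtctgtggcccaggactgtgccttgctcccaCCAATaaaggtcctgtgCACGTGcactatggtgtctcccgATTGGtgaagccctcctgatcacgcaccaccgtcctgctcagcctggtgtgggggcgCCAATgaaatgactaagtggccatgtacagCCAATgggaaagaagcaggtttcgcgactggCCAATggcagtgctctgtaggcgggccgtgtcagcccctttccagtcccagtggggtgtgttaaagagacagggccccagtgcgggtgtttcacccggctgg
Mlx: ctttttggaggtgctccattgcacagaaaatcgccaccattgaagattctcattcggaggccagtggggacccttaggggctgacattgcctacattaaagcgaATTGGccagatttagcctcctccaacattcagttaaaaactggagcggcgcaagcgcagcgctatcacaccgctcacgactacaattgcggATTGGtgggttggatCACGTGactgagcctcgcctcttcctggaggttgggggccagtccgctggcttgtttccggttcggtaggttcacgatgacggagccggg

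All 10 genes had at least 1 window in the RefSeq table, 15 windows in all. The paired sites were found once among them, in the Txnip window as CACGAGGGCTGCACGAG, with its first base 85 bases before the start. Of all 32851 promoter windows in the table, 16 held this layout (0.0487%). The E-box CACGTG, which itself fits a single copy of that layout, was in the windows of Arrdc4, Mlx and Mlxipl, against 7.15% of all windows. CCAAT was found 6 times in the Arrdc4 window, 3 times in that of Arrdc2 and 2 times each in those of Txnip, Mlxip and Mlx. There was 1 match each in the first and second windows of Arrdc3, the first of Mlxipl and the second of Txnrd1. Of all windows, 37.4% held at least 1 match, a share that gives no scale for the number of copies. The partial site TGACG of the cAMP response element, an element bound by the activity-regulated factor CREB, was in 1 window each of Arrdc3, Mlxip, Mlx and Txnrd1 and in 20.8% of all windows. Its full form TGACGTCA, which contains TGACG, was in 1.79% of all windows and in none of the 15. A match describes the letters only and does not show binding. The search for paired sites took exact matches of both copies, so a carbohydrate response element with a mismatch would be missed.

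**Figure D1:**
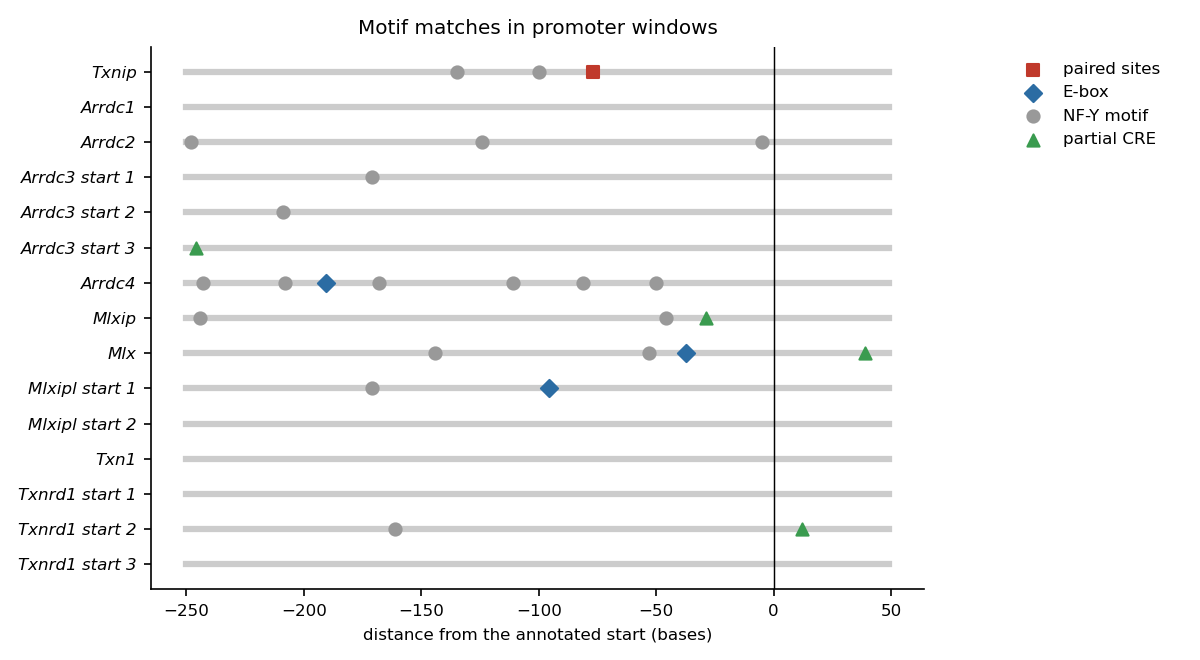
Positions of motif matches in the 15 RefSeq promoter windows of the 10 genes, as distance in bases from the annotated start; each grey bar is 1 window and each symbol is the centre of 1 match (NF-Y motif: CCAAT; partial CRE: TGACG). Exact matches of the paired sites occur in the Txnip window alone, and E-boxes in those of Arrdc4, Mlx and the first start of Mlxipl.

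Before the single genes, the libraries were compared. Totals ran from 25959298 to 28573067 expected counts, and between 18767 and 19212 genes had a count. The 2 h replicates stood apart: over 12290 genes, 404 differed more than 2-fold between them, against 49 at 0 h and 39 at 6 h, and across genes the difference followed GC content (Spearman's rho -0.719, against -0.392 at 0 h and -0.289 at 6 h). All 8 neuronal markers were detected, with summed levels of 5550.7 to 6017.2 TPM, a per-length level with an equal sum in every library; 3 of the 8 were lower in both 6 h libraries than in both 0 h libraries, Tubb3 at 666.12 and 794.03 against 1639.11 and 1679.16 TPM, and 5 were higher, Nefl at 83.69 and 89.34 against 33.44 and 34.76 TPM. The sum of 8 astrocyte markers was 835.8 to 906.4 TPM at 0 h, 787.4 to 821.9 at 2 h and 604.2 to 632.3 at 6 h, and 7 of the 8 were lower in both 6 h libraries than in both 0 h libraries. Of 7 oligodendrocyte-lineage markers 5 were lower in both 2 h libraries than in both 0 h libraries, with sums of 122.6 to 143.9 TPM at 0 h and 98.1 to 114.9 at 2 h, and at 6 h (118.8 to 129.0) 3 were lower and 2 higher. Of 7 markers of progenitors and dividing cells 3 were lower and 1 higher at 2 h, and 2 lower and 3 higher at 6 h, with sums of 130.9 to 150.6 TPM. Microglial markers summed to at most 9.4 TPM and endothelial and mural markers to at most 3.4 TPM, with 4 of 7 and 4 of 6 under 1 TPM in every library, and no marker was at 0 throughout. The share of all genes that lay apart between groups in this way was not counted, so these marker counts have no background beside them. With 2 libraries per group, such a separation can also arise without a change. In bulk RNA, fewer cells of a type and less RNA per cell cannot be told apart.

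The normalized count is the expected count of a gene scaled by DESeq2 size factors, and a call required an adjusted p no higher than 0.05 together with a log2 fold change beyond 1 in either direction. At 2 h, 2 of the 9 genes other than Txnip fell (Arrdc3 and Arrdc4) and none rose; of 16840 genes tested, 5.94% were called lower and 3.62% higher. At 6 h against 0 h, 3 of the 9 fell (Arrdc2, Arrdc3 and Arrdc4) and Mlxip rose; of 17277 genes tested, 10.2% were called lower and 9.1% higher. From 2 h to 6 h Mlxip and Mlx rose and none of the 9 fell, where 8.02% of 16404 genes were called lower and 10.1% higher. The 3 comparisons share libraries and are not independent of each other.

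**Figure D2:**
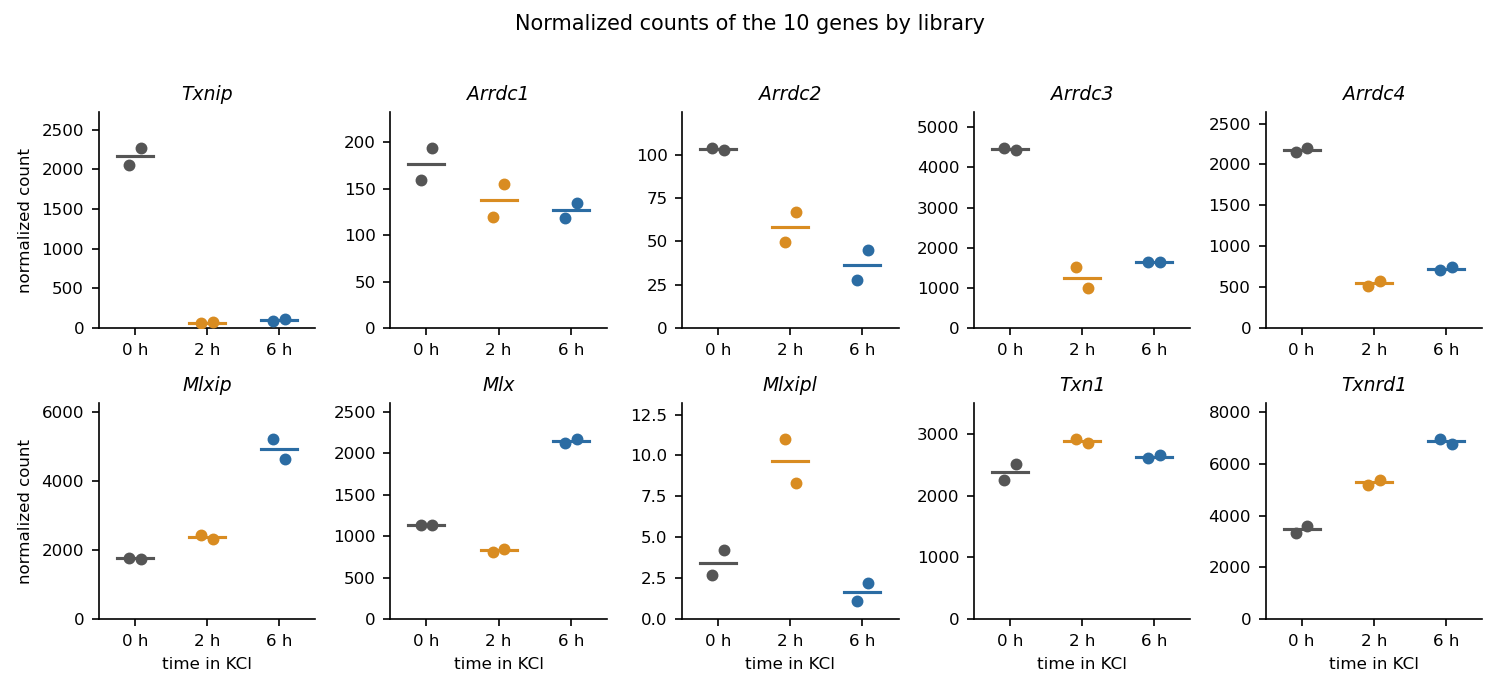
Normalized counts of the 10 genes (vertical axes from 0, scaled per gene) by time in KCl; each point is 1 library and each bar the mean of 2. Txnip drops from 2058.6 or more to 118.3 or less, Arrdc3 and Arrdc4 drop to between 22.55% and 37.04% of the 0 h mean, and Mlxip, Mlx and Txnrd1 are highest at 6 h.

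Txnip (ENSMUSG00000038393, chromosome 3, 96557957 to 96561883, GRCm38) was almost lost from the neurons within 2 h. Its normalized counts were 2058.6 and 2267.8 before KCl, 58.9 and 80.6 after 2 h, and 84.5 and 118.3 after 6 h. Each depolarized library held 2.72% to 5.47% of the 0 h mean, and no depolarized library came near a silenced one. The log2 fold change was -4.96 (SE 0.22) at 2 h and -4.41 (SE 0.21) at 6 h, which is 31.0-fold and 21.3-fold lower. Between 2 h and 6 h the log2 fold change was 0.54 (SE 0.25), so most of the loss was still present at 6 h. With each library left out in turn, and under each other setting tried, the value at 2 h lay between -5.22 and -4.26. In 5 libraries the expected count of Txnip was not whole, so it shared some reads with other genes.

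The per-length level of Txnip followed the same course, at 59.7 and 64.4 TPM before KCl, 2.56 and 2.04 after 2 h and 2.07 and 2.99 after 6 h. In the first 2 h library its effective length, the mean length of its transcripts weighted by abundance, was 1414 bases, against 2429 to 2505 bases in the other 5 libraries. That library had the lower count of the pair at 2 h but the higher TPM. Txn1 mRNA stood at 3.56 and 3.77 times the TPM of Txnip before KCl, at 96.1 and 119 times after 2 h and at 107 and 76.1 times after 6 h.

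Arrdc3 and Arrdc4 fell with KCl but by far less than Txnip. Arrdc3 (ENSMUSG00000074794, chromosome 13, 80883384 to 80896042) is an adaptor known for the turnover of beta-adrenergic receptors and integrins. It had normalized counts of 4481.1 and 4440.3 before KCl, 1510.9 and 1005.9 after 2 h, and 1652.1 and 1651 after 6 h. All depolarized libraries lay below both 0 h libraries. The log2 fold change was -1.83 (SE 0.20, DESeq2 adjusted p 8.59e-19) at 2 h and -1.43 (SE 0.20, adjusted p 2.88e-12) at 6 h. The 2 h replicates differed most, and with GC correction the 2 h value was -1.71 (SE 0.10). Without replicate 1 or replicate 2 at 2 h the gene was still called.

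Arrdc4 (ENSMUSG00000042659, chromosome 7, 68736995 to 68749241), the closest relative of Txnip in its known control by glucose, had normalized counts of 2153.6 and 2200.4 before KCl, 516.3 and 580 after 2 h, and 704.1 and 749.7 after 6 h. Its replicates lay close together at every time. The log2 fold change was -1.99 (SE 0.13, adjusted p 5.34e-50 by DESeq2) at 2 h and -1.58 (SE 0.13, adjusted p 8.33e-33) at 6 h. From 2 h to 6 h its value was 0.41 (SE 0.13, adjusted p 0.00709), under the fold threshold, and both 6 h libraries lay above both 2 h libraries.

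At 0 h Arrdc2 and Arrdc1 were the least abundant alpha-arrestins with counts. Arrdc2 (ENSMUSG00000002910, chromosome 8, 70835129 to 70839720) had normalized counts of 103.9 and 102.8 before KCl, 49.9 and 67.2 after 2 h, and 27.8 and 45.2 after 6 h. The groups did not overlap. At 2 h the log2 fold change was -0.82 (SE 0.38, DESeq2 adjusted p 0.0949), and at 6 h it was -1.50 (SE 0.39, adjusted p 0.000497). The call at 6 h was lost without replicate 1 of the 6 h group, where the value was -1.20 (adjusted p 0.0676).

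Arrdc1 (ENSMUSG00000026972, chromosome 2, 24925352 to 24935252), known for the budding of vesicles from the plasma membrane, had normalized counts of 159.8 and 193.8 before KCl, 119.8 and 155.1 after 2 h, and 118.8 and 134.4 after 6 h. Its log2 fold change was -0.36 (95% interval -0.89 to 0.16) at 2 h and -0.48 at 6 h (DESeq2 adjusted p 0.356 and 0.133), and it was not called. Arrdc5, the further alpha-arrestin of the mouse, was listed at 0 in all 6 libraries, and 3 counts, the limit that a count of 0 allows, would correspond there to 0.105 to 0.116 CPM.

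On the TPM scale, which allows genes to be set beside each other, the 5 alpha-arrestins with counts summed to 266.8 and 275.0 TPM before KCl, 54.6 and 61.8 after 2 h, and 67.1 and 73.6 after 6 h. Arrdc3 made up 47.6% to 58.3% of the sum in every library. The share of Txnip went from 22.4% and 23.4% at 0 h to between 3.08% and 4.69% in the depolarized libraries. The share of Arrdc4 was 19.7% and 20.99% at 0 h and 26.01% to 30.2% afterwards, although its own level was lower.

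**Figure D3:**
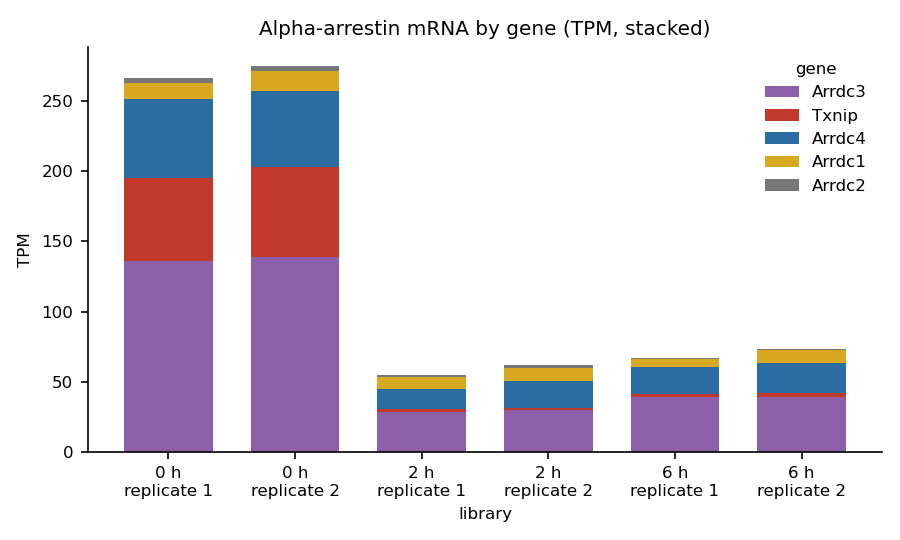
Summed mRNA level of the 5 alpha-arrestins with counts in each library (TPM, stacked by gene, 1 bar per library). Both 0 h bars exceed 260 TPM, while the depolarized libraries lie between 54.6 and 73.6 TPM, and Arrdc3 is the largest part of every bar.

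Among the sensor factors, Mlxip rose at 6 h and Mlx rose from 2 h to 6 h. Mlxip (ENSMUSG00000038342, chromosome 5, 123394798 to 123457932), which encodes MondoA, had normalized counts of 1778.1 and 1753.7 before KCl, 2430.6 and 2332.3 after 2 h, and 5216.5 and 4647.5 after 6 h. Its libraries were ordered by time with no overlap. The log2 fold change was 0.43 (SE 0.12, DESeq2 adjusted p 0.00131) at 2 h, under the fold threshold, and 1.48 (SE 0.11, adjusted p 2.89e-36) at 6 h. From 2 h to 6 h it rose by 1.05 (SE 0.11, adjusted p 1.42e-18), just past the fold threshold. That last call was lost without replicate 1 of the 6 h group, where the value was 0.96.

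Mlx (ENSMUSG00000017801, chromosome 11, 101087277 to 101092207), the shared partner of MondoA and ChREBP, had normalized counts of 1130.1 and 1130.9 before KCl, 811.9 and 846.7 after 2 h, and 2121.9 and 2172.6 after 6 h. Both 2 h libraries were below and both 6 h libraries above the 0 h libraries. The log2 fold change at 2 h was -0.45 (SE 0.11, DESeq2 adjusted p 0.000624) and at 6 h it was 0.93 (SE 0.11, adjusted p 8.03e-16), both under the fold threshold. From 2 h to 6 h Mlx rose by 1.37 (SE 0.11, adjusted p 3.45e-32). Mlx overlaps Psmc3ip on the other strand and had non-whole counts in all 6 libraries, so its counts are uncertain. Psmc3ip stood at 75.3 to 130.6 normalized counts in these libraries.

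Mlxipl (ENSMUSG00000005373, chromosome 5, 135089890 to 135138382), which encodes ChREBP and is best known from liver and fat, was close to absent. Its normalized counts were 2.7 and 4.2 before KCl, 11 and 8.3 after 2 h, and 1.1 and 2.2 after 6 h. The level was at most 0.32 TPM, while Mlxip lay between 17.8 and 47.3 TPM. No difference of Mlxipl passed the test (DESeq2 adjusted p 0.396, 0.556 and 0.101 for 2 h against 0 h, 6 h against 0 h and 6 h against 2 h), and at this depth no smaller difference could be seen either.

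Neither thioredoxin gene was called lower at either time. Txn1 (ENSMUSG00000028367, chromosome 4, 57943373 to 57956411), the cytosolic thioredoxin that Txnip binds, had normalized counts of 2259.2 and 2515.5 before KCl, 2917.9 and 2850.3 after 2 h, and 2614.1 and 2657.7 after 6 h. Its log2 fold change was 0.27 at 2 h and 0.14 at 6 h (DESeq2 adjusted p 0.0544 and 0.31), and the value at 6 h changed sign to -0.10 when libraries were scaled by their totals. With GC correction the value at 2 h was 0.36 (DESeq2 adjusted p 0.00125), under the fold threshold. Both 6 h libraries lay below both 2 h libraries, a difference of -0.13 (adjusted p 0.361) that was -0.25 with GC correction (adjusted p 0.0251), under the fold threshold. Txnrd1 (ENSMUSG00000020250, chromosome 10, 82833951 to 82897712), the reductase that regenerates cytosolic thioredoxin, had normalized counts of 3333.3 and 3604.3 before KCl, 5203.7 and 5392.4 after 2 h, and 6967 and 6788.9 after 6 h. Its libraries were ordered by time with no overlap. The log2 fold change was 0.61 (SE 0.10, DESeq2 adjusted p 3.46e-08) at 2 h and 0.99 (SE 0.10, adjusted p 6.01e-21) at 6 h, just under the fold threshold, and without replicate 2 of the 0 h or of the 6 h group it was 1.05 or 1.01 and was called.

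**Figure D4:**
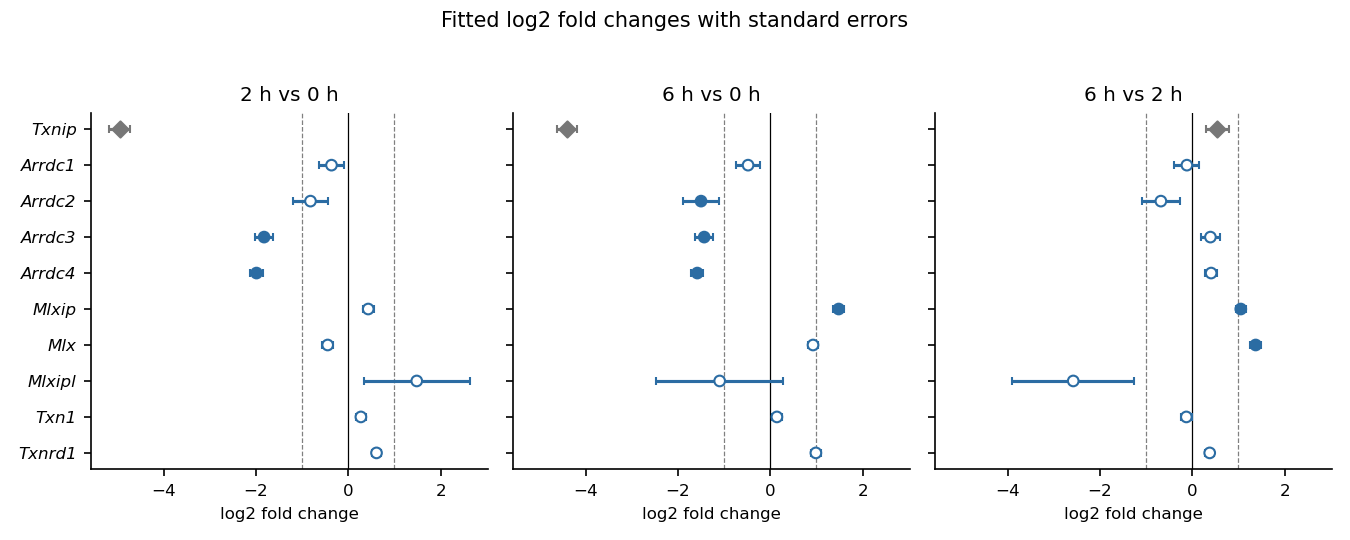
Fitted log2 fold changes (horizontal axes) of the 10 genes in the 3 comparisons, with bars of 1 standard error; filled circles meet both thresholds, open circles do not, Txnip is drawn as a grey diamond because it was not tested, and dashed lines mark log2 fold changes of -1 and 1. Txnip lies at -4.96 and -4.41 against 0 h, Arrdc3 and Arrdc4 lie between -1.99 and -1.43, and Mlxip and Mlx lie above 1 at 6 h against 2 h.

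The order of the 10 genes by TPM shifted with time. At 0 h it ran Txn1 (228 TPM), Arrdc3 (137), Mlx (96.1), Txnrd1 (79.0), Txnip (62.1), Arrdc4 (55.0), Mlxip (17.9), Arrdc1 (12.9), Arrdc2 (3.62) and Mlxipl (0.10), and the ranges of neighbours did not overlap. At 2 h Txnip stood eighth, at 2.30 ± 0.37 TPM (SD, n = 2), and its range overlapped that of Arrdc2 at 1.81 ± 0.40 TPM. At 6 h the ranges of Mlx (141 ± 10.6 TPM) and Txnrd1 (138 ± 0.83 TPM) overlapped, and Txn1 led the order at every time.

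To see whether the mix of transcripts moved, effective lengths were tested with limma. None of the 7 genes other than Txnip with enough counts was called in any comparison, where 0.0356%, 0.525% and 0.116% of 11233 genes were called for 2 h against 0 h, 6 h against 0 h and 6 h against 2 h. Arrdc4 came nearest in size, with 2711 and 2890 bases at 0 h, 2245 and 1955 bases at 2 h, and 2266 and 2194 bases at 6 h. Its groups did not overlap against 0 h, and the log2 ratios were -0.42 and -0.33 (adjusted p 0.316 and 0.232). The 2 h replicates of Arrdc3 differed from each other, at 3334 and 2149 bases.

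The genes whose course was most like that of Txnip, Arrdc3, Arrdc4, Mlxip and Mlx were then sought among 11183 genes with a mean of 100 or more normalized counts, a limit that Arrdc2 did not reach, by the root mean square difference of log2 counts, centred on 0 h, over the 6 libraries. The closest to Txnip was Senp8, which encodes a protease of the ubiquitin-like protein NEDD8, at 1.11, with 293.8 and 288.2 normalized counts at 0 h and 24.7 to 28.9 in the depolarized libraries. Zfp759 (1.51), Zfp113 (1.60) and Zkscan4 (1.69), which encode zinc-finger proteins, and the monocarboxylate transporter gene Slc16a6 (1.73) came next. With the limit at 50, Zfp493 (1.05) came first and Senp8 (1.11) and Parp16 (1.28) followed. The nearest genes to Arrdc4 were Dclk3 (0.064), AW209491 (0.101) and Fndc10 (0.133), and those to Arrdc3 were Ackr3 (0.132), AI987944 (0.182) and Pdik1l (0.193). Around Mlxip lay Nr2f1 (0.060), Slc20a1 (0.066) and Slc6a6 (0.067), and around Mlx lay Ric8b (0.046), Tbcel (0.065) and Men1 (0.065). These distances describe the libraries and say nothing of shared control.

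The paired sites of the Txnip promoter were in windows of 15 genes in all, of which 13 had a count in any library, and 10 of them besides Txnip were tested at each time. At 2 h 1 of the 10 fell and none rose: A430005L14Rik went from 206.8 and 217.4 normalized counts to 53.9 and 52.7 (log2 fold change -1.99, DESeq2 adjusted p 1.82e-10). At 6 h 1 of the 10 rose and none fell: Fnip1, which encodes a partner of folliculin in nutrient sensing, went from 1242.8 and 1170.5 to 2603.4 and 2395.3 (1.05, adjusted p 0.000484), a call lost with GC correction (0.81), with library totals (0.81) or without replicate 1 of the 6 h group (0.99). At 6 h A430005L14Rik was at -0.96 and not called, but was called lower with TMM factors (-1.001), with library totals (-1.21) and without replicate 2 of the 6 h group (-1.205). From 2 h to 6 h it was the 1 of the 10 called higher, beside 10.1% of all genes (1.03, adjusted p 0.00202), a call lost with TMM factors (0.994), library totals (0.952) and without replicate 2 of the 6 h group (0.787). These counts of 1 in 10 stand beside 5.94% of all genes called lower at 2 h and 9.1% called higher at 6 h.

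Glucose transporters, the cargo of Txnip, did not move as 1 group. Of 13 tested genes of glucose entry and phosphorylation, 1 rose and 1 fell at 2 h (3.62% and 5.94% of all genes), and 2 rose and 3 fell at 6 h (9.1% and 10.2% of all genes); the median log2 fold change of the list was -0.33 and -0.59, against 0.02 and 0 over all genes tested. Slc2a3, which encodes the neuronal transporter GLUT3, rose from 3363.7 ± 101.9 normalized counts to 10191.7 ± 211.7 after 2 h and 10368.9 ± 160.6 at 6 h (SD, n = 2), with log2 fold changes of 1.60 and 1.62 (SE 0.09 each, DESeq2 adjusted p 4.84e-64 and 3.5e-66). Slc2a1, which encodes GLUT1, was at 252.2 ± 61.7 at 0 h and 202.3 ± 54.5 at 2 h and rose to 667.4 ± 49.5 at 6 h (log2 fold change 1.40, SE 0.26, adjusted p 4.29e-07). Slc2a6 fell at 6 h from 244.9 ± 35.0 to 67.0 ± 2.0 (-1.87, adjusted p 3.3e-12). Slc2a8 fell at 2 h by 1.03 on the log2 scale (adjusted p 0.0097), a call lost without either 0 h library, without replicate 1 at 2 h or without either 6 h library. Slc2a2, which encodes GLUT2 and is counted below among the targets of MondoA and ChREBP, had no count at 0 h, 115.8 and 65.1 normalized counts at 2 h and 13.9 and 6.5 at 6 h, and was called higher at both times (DESeq2 adjusted p 6.96e-08 and 0.000566) and lower from 2 h to 6 h (1.11e-05). It is not among the 13, and it was named after its values were seen. The hexokinase genes Hk1, which had 6912.5 ± 224.6 normalized counts at 0 h, and Hk2, with 182.2 ± 107.0, were not called in either comparison with 0 h; without replicate 1 of the 0 h group Hk2 was called lower at both times, by -1.36 and -1.21, and at 2 h also without replicate 2 of the 2 h group, by -1.19.

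**Figure D5:**
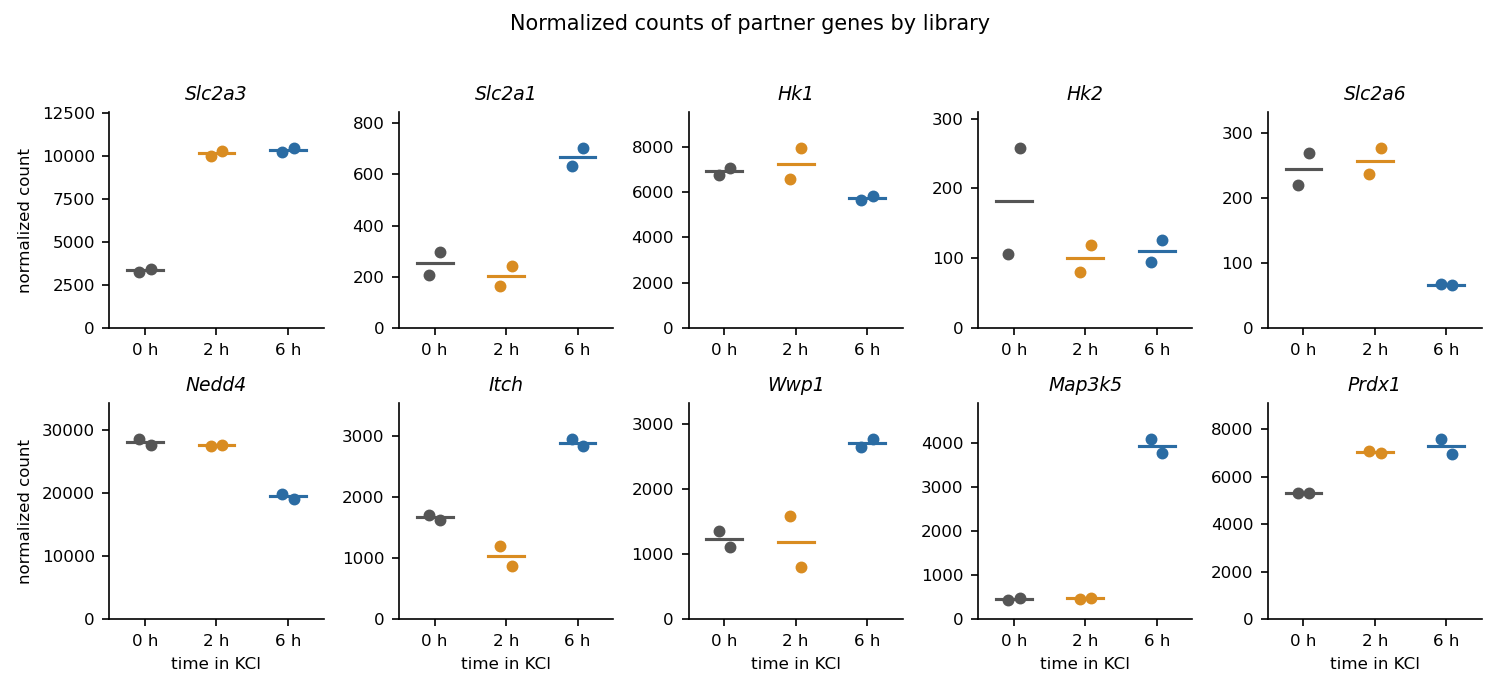
Normalized counts of 10 partner genes (vertical axes from 0, scaled per gene) by time in KCl; each point is 1 library and each bar the mean of 2. Slc2a3 is raised from 2 h on, while Slc2a1, Itch, Wwp1 and Map3k5 are highest at 6 h and Slc2a6 and Nedd4 are lowest there.

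Alpha-arrestins recruit ligases of the Nedd4 family. None of its 9 genes was called at 2 h, where 3.62% of all genes were called higher and 5.94% lower. None was called lower at 6 h against 0 h or 2 h (10.2% and 8.02% of all genes), 1 rose at 6 h and 2 rose from 2 h to 6 h, where 9.1% and 10.1% of all genes were called higher, with list medians of -0.05, 0.12 and 0.51 (all genes 0.02, 0 and -0.01). Nedd4, the most abundant of those named, had 28159.6 ± 626.8 normalized counts at 0 h, 27639.3 ± 115.6 at 2 h and 19508.9 ± 519.2 at 6 h. Its log2 fold change at 6 h against 0 h was -0.53 (DESeq2 adjusted p 1.11e-08), which did not reach the fold threshold. The gene overlaps Gm7265 and Gm36936 on its own strand, but its expected counts were whole in every library and so showed no sign of shared reads. Itch, a ligase known to bind Txnip, had 1675.0 ± 56.7 at 0 h and rose from 1044.0 ± 232.3 at 2 h to 2896.9 ± 84.3 at 6 h (1.47, adjusted p 5.56e-16). Wwp1 rose at 6 h from 1234.8 ± 170.7 to 2712.7 ± 80.4 (1.14, adjusted p 0.00026), and the value was 0.86 with GC correction and 0.89 with library totals, neither of them called. Its 2 h libraries were far apart, at 1193.6 ± 550.5, and its rise from 2 h (1.18) was not called with GC correction (0.72) or without replicate 2 of the 2 h group (0.79).

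Of 7 other arrestin-fold genes tested, none was called at 2 h (all genes 3.62% higher and 5.94% lower) and 2 fell at 6 h, where 10.2% of all genes were called lower: Vps26c by 1.34 and Rgp1 by 1.01 on the log2 scale (DESeq2 adjusted p 4.19e-23 and 1.79e-11). Vps26c belongs to the retriever complex of endosomal recycling and Rgp1 to a trafficking exchange factor. Rgp1 overlaps Gba2 on the other strand, was at the edge of the threshold and was not called with GC correction (-0.89) or without replicate 1 of the 6 h group (-0.96). The beta-arrestin genes Arrb1 (9251.9 ± 75.6 normalized counts at 0 h) and Arrb2 (971.2 ± 11.4) and the retromer gene Vps26a (1254.2 ± 46.2) were not called in any of the 3 comparisons.

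In the wider thioredoxin system no gene of 25 was called at 2 h, where 3.62% of all genes were called higher and 5.94% lower, and 4 rose and 2 fell at 6 h, beside 9.1% and 10.2% of all genes, with medians of 0.10 and 0.09. Map3k5, which encodes the stress kinase ASK1 that reduced thioredoxin holds inactive, had 452.5 ± 31.1 normalized counts at 0 h and 473.1 ± 19.5 at 2 h and rose to 3936.2 ± 218.6 at 6 h (log2 fold change 3.12, SE 0.13, DESeq2 adjusted p 2.3e-125). The methionine sulfoxide reductase gene Msrb3 rose from 28.4 ± 6.3 to 123.3 ± 17.8 (2.12, adjusted p 4.01e-07), and Txnl4a, a spliceosome gene with a thioredoxin fold, rose from 649.3 ± 23.3 to 1443.3 ± 63.8 (1.15, adjusted p 1.29e-19). With library totals as size factors Txnl4a was at 0.91 and not called, and it overlaps Gm16286. Txnrd3, a reductase best known from testis, fell from 493.9 ± 34.4 to 122.3 ± 3.5 (-2.01, adjusted p 1.05e-25). Prdx1, an abundant peroxiredoxin that thioredoxin reduces, had log2 fold changes of 0.40 and 0.45 (adjusted p 0.000371 and 2.2e-05), under the fold threshold. The mitochondrial pair Txn2 and Txnrd2 had values of 0.24 and -0.73 at 6 h and was not called.

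Of the known targets of MondoA and ChREBP from liver and cell lines, 20 were tested at 2 h, of which 2 rose and 2 fell (3.62% and 5.94% of all genes), and 21 at 6 h, of which 2 rose and 2 fell (9.52% of the list each, beside 9.1% and 10.2% of all genes), with medians of 0.31 and 0.30. Thrsp, a lipogenic target, fell from 142.8 ± 17.4 normalized counts to 52.4 ± 4.9 after 2 h and 22 ± 6.8 after 6 h (log2 fold changes -1.45 and -2.70, DESeq2 adjusted p 0.000285 and 4.99e-11), and the 2 h call was lost without replicate 2 of the 0 h group (-1.31, adjusted p 0.133). Of the fatty acid synthesis and desaturation genes Fasn, Acly, Acaca, Scd1, Scd2 and Elovl6, named after their values were seen, none was called, and their log2 fold changes were 0.23 to 0.68 at 2 h and 0.23 to 0.97 at 6 h. The highest of these, Elovl6 at 6 h (adjusted p 5.76e-06), was called without replicate 1 of the 0 h group (1.04). The sign turned for Scd1 at 6 h with library totals (-0.017) and for Elovl6 at 2 h without replicate 1 of the 2 h group (-0.115). The transcription factor gene Klf10 fell at 6 h by 1.37 (adjusted p 1.82e-08) and the clock-related repressor gene Bhlhe40 fell at 2 h by 1.27 (adjusted p 2.64e-13). Rgs16, a regulator of G-protein signalling, rose from 210.5 ± 26.5 to 457.0 ± 24.9 after 2 h and 822.9 ± 18.2 after 6 h (1.12 and 1.97, adjusted p 1.54e-09 and 8.56e-30), though with library totals as size factors the 2 h value was 0.95 and it was not called.

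Of 12 Max and Mlx network genes, whose products bind E-boxes, 2 fell at 2 h and 2 fell at 6 h, where 5.94% and 10.2% of all genes were called lower, and none rose at either time (3.62% and 9.1% of all genes); the medians were -0.27 and 0.17. Mycn had 755.0 ± 55.9 normalized counts at 0 h, 284.3 ± 27.8 after 2 h and 363.7 ± 7.4 after 6 h (log2 fold changes -1.41 and -1.05, DESeq2 adjusted p 1.31e-15 and 1.39e-09), and at 6 h it was not called with GC correction (-0.93) or without replicate 1 of the 0 h group (-0.97). Mycl fell at 6 h from 2565.5 ± 13.9 to 964.9 ± 26.1 (-1.41, adjusted p 1.58e-22). Mga fell at 2 h from 2804.9 ± 306.7 to 1284.4 ± 471.4 (-1.13, adjusted p 2.61e-05) and rose from there to 4146.1 ± 147.3 at 6 h (1.69, adjusted p 1.9e-11), and the fall was not called without replicate 2 of the 2 h group (-0.81).

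Energy-stress genes also varied one by one. Of 14 AMPK and energy-stress genes tested, 1 rose and 1 fell at 2 h (3.62% and 5.94% of all genes) and 2 rose at 6 h (9.1% of all genes), with medians of 0.03 and 0.36. Sesn2, a stress-induced inhibitor of mTORC1, rose from 621.8 ± 62.1 normalized counts to 1437.9 ± 235.7 after 2 h and 1731.6 ± 74.6 after 6 h (log2 fold changes 1.21 and 1.48, DESeq2 adjusted p 2.13e-11 and 3.18e-17), and Ddit4l rose at 6 h by 1.14 (adjusted p 3.15e-09; 0.90 and not called with library totals). Prkaa1, which encodes a catalytic subunit of AMPK, the kinase that marks Txnip for degradation, fell at 2 h from 766.2 ± 7.4 to 306.4 ± 75.1 (-1.32, adjusted p 1.02e-09) and was at 563.8 ± 19.5 at 6 h. The second catalytic subunit gene Prkaa2 and the sestrin gene Sesn1 rose from 2 h to 6 h by 1.02 and 1.08 (adjusted p 4.64e-05 and 1.19e-16), but with GC correction the values were 0.60 and 0.99 and neither was called. Prkaa2 was also not called with TMM factors (0.976), library totals (0.945) or edgeR (0.991), or without replicate 2 of the 2 h group (0.71) or of the 6 h group (0.97), and Sesn1 not with library totals (0.998). Ddit4, an mTORC1 inhibitor, was not called, with 1180.9 ± 149.8 at 0 h and 1383.6 ± 112.0 at 6 h. Of 5 inflammasome genes, which Txnip is known to engage in other cells, none was called at 2 h, where 3.62% and 5.94% of all genes were called higher and lower, and 1 fell at 6 h, where 10.2% were called lower. Nlrp3, Il1b, Pycard and Casp1 had means of only 2.2, 2.6, 10.3 and 25.5 normalized counts at 0 h. At these levels a change could be missed. Il18, which overlaps Bco2 on the other strand, fell at 6 h from 115.4 ± 3.7 to 56.3 ± 7.0 (-1.03, adjusted p 0.000938), a call lost without replicate 2 at 0 h (-0.999, adjusted p 0.0696) or without replicate 1 at 6 h (-0.91, adjusted p 0.082).

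Most markers of astrocytes, a cell type that also expresses Txnip, thioredoxins and glucose transporters, were lower at 6 h, at 604.2 to 632.3 against 835.8 to 906.4 TPM in sum. The part of this in the results at 6 h was not tested. At 2 h, when Txnip was already at 2.72% and 3.73% of its 0 h mean, the astrocyte sum was 787.4 and 821.9 TPM, and most oligodendrocyte-lineage markers were lower (5 of 7). The part of these markers in the results at 2 h was not tested either.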

How the data were processed

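Poly(A) RNA of 6 cultures was sequenced as stranded paired-end libraries. Per the labels, the authors mapped reads to mm10, and the submitters' processing notes name RSEM 1.3.0 and Bowtie2 2.2.9; the annotation release and the strand setting are not given in the sources used here. The expected counts deposited by the authors are RSEM estimates, not normalized, and need not be whole, since reads that fit several genes are shared among them. The TPM values deposited by the authors are corrected for transcript length. The effective lengths deposited by the authors (another unit, bases) are means over transcripts weighted by abundance. The deposited FPKM values were not used.

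Groups came from the sample titles. Of 43432 listed genes, 42462 were matched to a symbol. Positions and overlaps come from GENCODE M21 on GRCm38, which may be another release than the authors used. Expected counts were rounded, and all 6 libraries entered 1 DESeq2 1.42.0 fit (R 4.3.3) with the group as the only term, median-of-ratios size factors, no shrinkage of fold changes, and Benjamini-Hochberg adjustment across the genes that independent filtering retained. This test and its thresholds follow the methods of the study. Log2 effective lengths were tested with limma 3.58.1 where expected counts averaged 100 or more, and a call needed an adjusted p up to 0.05 with a log2 ratio of 0.2 or more in either direction. Both tests, and edgeR 4.0.16 as an alternative, were tested on simulated data. Library totals were 25959298 to 28573067; reads carry no molecular identifiers, so a limit from 3 counts covers counting error only. The replicates are biological duplicates per the labels, which do not say whether they came from separate dissections.

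The 10 genes and the partner lists were chosen with earlier results of these data known. Named are the 10 genes, Arrdc5, the 5 genes most like Txnip and the 3 most like each other called gene (mean normalized count of at least 100, which leaves out Arrdc2), 15 defining partner genes, and in each list the 4 called genes with the largest absolute change (mean of at least 50). The genes with paired sites that are named, Fnip1 and A430005L14Rik, were chosen after their values were seen, as were Psmc3ip, Slc2a2 and 6 lipogenic genes. Alternatives were other size factors, filters, tests and samples, a replicate block, GC correction and leaving out each library.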

Additional observations from a re-analysis of the deposited data

How the results depend on the processing

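No called value of the 9 genes other than Txnip changed direction under the alternatives, and of 450 alternative values of their log2 fold changes 441 kept their side of the thresholds. Against a fold change of 2 as the null, 1 of the 9 genes other than Txnip was called lower at 6 h against 0 h (Arrdc4) and 1 called higher at 6 h against 2 h (Mlx). With library totals as size factors 1 was called higher at 6 h against 2 h (Mlx; Mlxip was at 0.97), and on the log2(TPM + 1) scale Mlxip was at 0.98. Leaving out each library in turn gave 1 to 2 genes called higher at 6 h against 0 h and 1 to 2 at 6 h against 2 h. The cause of these changes was not tested beyond the libraries and settings named.

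Library totals moved the median log2 fold change of all genes to -0.16, -0.25 and -0.08 at 2 h against 0 h, 6 h against 0 h and 6 h against 2 h, so changes are to be read relative to it; the share of called genes that were higher was then 27.3% in place of 37.8% at 2 h, and 28.7% in place of 47.2% at 6 h against 0 h. The test against a fold change of 2 gave 178 higher and 225 lower genes at 2 h, 446 and 414 at 6 h against 0 h, and 342 and 198 at 6 h against 2 h. Of 47 calls of the named partner genes it left out 32. With library totals 1032 genes were called higher at 6 h against 0 h.

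Same-numbered libraries of 0 h and 2 h, 0 h and 6 h, and 2 h and 6 h had deviations correlated at 0.281, -0.002 and 0.152. These values do not settle whether same-numbered libraries were paired. The numbers were not used to pair samples, because the labels do not say that a number marks a shared culture, litter or day. Adding the replicate block gave 548 higher and 967 lower genes at 2 h, and no call of the 9 genes changed. Of the 5 genes most like Txnip, 3 were also among the 5 at a mean of at least 50. Depth limits Mlxipl, at most 11 normalized counts. The planned description of proteins was not run, since no protein table was at hand.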
